A study of Mus musculus with 21 samples.

Results

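The cathepsins are the main protein-digesting enzymes of the lysosome, the acid compartment in which cells break down what they take up and what they recycle. 10 genes were chosen by symbol: Ctsd, Ctsb, Ctsl, Ctss, Ctsf, Ctsc, Ctsh, Ctsz, Ctsa and Lgmn. All 10 were found, once each, among the 41128 gene symbols of the deposited table of normalized read counts, and all 10 passed the filter on low values in both sets of libraries.

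Transcripts were measured by RNA sequencing in striatal tissue, from the deep forebrain, of mice described as wild type and collected 3 weeks after injection into the striatum of an adeno-associated virus (AAV, a carrier that delivers a gene without replicating). Set A held 3 libraries labelled WT, 3 labelled Cas9 and 3 labelled GCas9, and set B held 4 labelled GFP, 4 Cas9 and 4 GCas9. Cas9 is the bacterial nuclease of genome editing, GFP is a green fluorescent protein used as control cargo, and GCas9, which the labels do not spell out, is known from the study as Cas9 joined to part of Geminin, a tag meant to shorten the life of the protein. The labels put every library, WT included, under a single injection protocol, so whether the WT mice received a virus is not known. Age is given as 3 weeks in one field and as 3 months in another. Promoter, serotype, dose and guide RNA are not given in the sources used here, and nothing says that each library came from its own animal, so p-values measure the spread between these libraries.

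Cathepsins reach the lysosome as inactive precursors, carried by mannose 6-phosphate receptors, and are activated there by acid and by one another. Most are cysteine peptidases held in check by cystatins and stefins, while cathepsin D is an aspartic and cathepsin A a serine enzyme. In the brain, neurons depend on them for turnover of proteins, and microglia, the resident phagocytes, carry large amounts of several of them. Cathepsin S is best known for cutting the invariant chain (Cd74) that guards class II antigen-presenting molecules.

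Reads assigned to genes ran from 20.34 M to 28.05 M (M, mega-reads) per library for set A, and from 6.09 M to 11.07 M in set B. The 2 sets were scaled apart by the authors, so levels were compared within a set only. In set B the 4 Cas9 libraries (6.09 M to 7.69 M) were all shallower than the GFP (7.89 M to 9.75 M) and GCas9 libraries (7.81 M to 11.07 M). The fewest reads behind any cathepsin value were 146 for Ctsc in set A and 175 for Ctsh in set B, a counting error of 8.3% and 7.6%. Markers of striatal neurons, as the tissue label asks, were present in every library, with summed levels of 271981 to 342847 normalized counts for set A, 114033 to 140848 for set B and no marker at 0. One Cas9 library of set A, replicate 1, stood apart in markers of choroid plexus and ependyma, which line the ventricles next to the striatum. Their summed level was 294726 there, against 1402 and 3312 in the other Cas9 libraries and at most 1932 in WT. The differences of the 10 genes between groups of set A that include this library are also given without it.

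In set A, cathepsin transcripts were more abundant in the Cas9 and GCas9 libraries than in WT, by about 2.0-fold for Ctsd and 2.7-fold for Ctss in the group means of Cas9, but the libraries within Cas9 and within GCas9 differed widely and no gene of the 10 passed the limma test at an adjusted p of 0.05 against WT, which 0.00628% of all genes tested passed in each comparison. In set B, where the control was GFP virus, all 10 genes overlapped between every pair of groups, and Ctss covered a 2.54-fold range within GFP, 2.01-fold within Cas9 and 2.89-fold within GCas9. Ctsf was the exception to the set A pattern, with near-equal levels in all 3 groups.

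**Figure D1:**
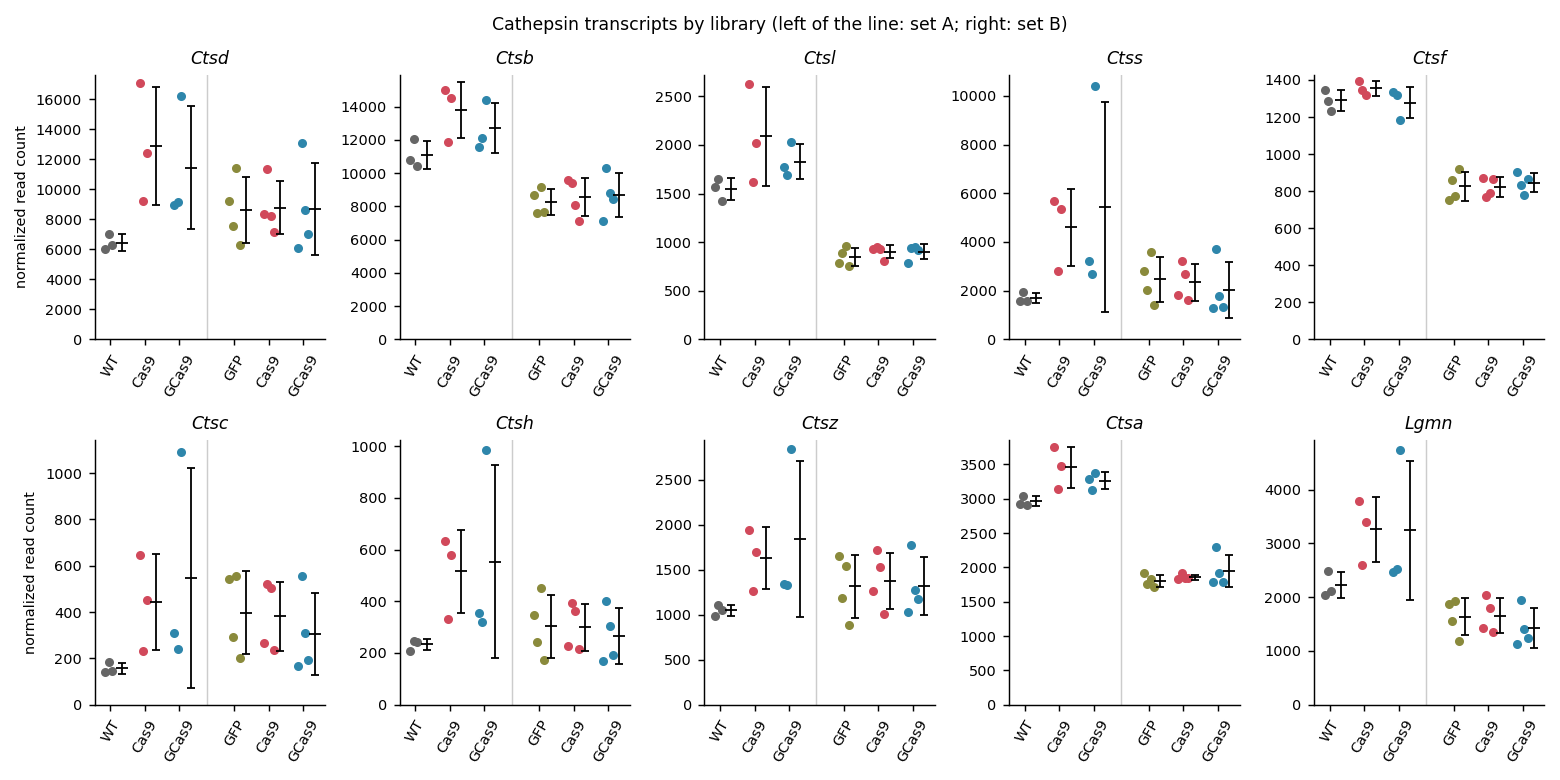
Normalized read count (vertical axis, from 0) of each of the 10 genes in every library, by group, with set A left and set B right of the grey line. Dots are libraries and the bar beside them is the mean with 1 SD. In set A the Cas9 and GCas9 dots of Ctsd, Ctss, Ctsc, Ctsh, Ctsz and Ctsa all lie above the WT dots, and in set B all groups overlap.

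Promoters were read from RefSeq on GRCm38.p6, as the 250 bases before and 50 after each start. There were 10 windows for 8 members; Ctsb and Ctsh were not among them. Searched on both strands, CACGTG (the E-box within the CLEAR element that TFEB binds) lay in 5 of the 10 windows, 1 each of Ctsd, Ctsa, Ctsl, Ctsf and Lgmn, where 7.15% of 32851 promoters held it. Ctsa and Lgmn each have another window, further upstream, that held no match to any motif searched. The matching windows of Ctsa, Lgmn and Ctsl lie within the annotated gene, downstream of its annotated start. The Ctsd window spans the annotated start of that gene (142388038), and its TCACGTGA lies downstream of that start, within the gene. TCACGTGA, a longer form that contains CACGTG, lay in 2 of 10, of Ctsd and Ctsa, where 0.974% of promoters held it. GAGGAA, the core of sites for the myeloid factor PU.1, lay in 2 of 10, of Ctss and Ctsc, where 28.3% of promoters held it. A match is a description of letters, not a site. The 250 upstream bases are shown for 4 genes that differ in their values, 5' to 3' on the gene's strand, with matches in capitals (TTCCTC is GAGGAA read on the other strand). Ctsd and Ctsf hold CACGTG, the first higher in set A than WT and the second near-equal, and Ctss and Ctsc, which had the largest differences from WT, hold GAGGAA and no CACGTG. Ctsz, also above WT in all Cas9 and GCas9 libraries of set A, held none of the motifs. Whether motifs go with levels was not tested.
Ctsd (chr7:142387828-142388077, minus strand): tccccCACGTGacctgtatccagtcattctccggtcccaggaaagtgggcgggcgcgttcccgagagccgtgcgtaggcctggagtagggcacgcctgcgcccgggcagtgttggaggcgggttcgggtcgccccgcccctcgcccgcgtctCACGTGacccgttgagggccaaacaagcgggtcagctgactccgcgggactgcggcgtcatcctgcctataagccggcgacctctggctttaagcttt
Ctsf (chr19:4854915-4855164, plus strand): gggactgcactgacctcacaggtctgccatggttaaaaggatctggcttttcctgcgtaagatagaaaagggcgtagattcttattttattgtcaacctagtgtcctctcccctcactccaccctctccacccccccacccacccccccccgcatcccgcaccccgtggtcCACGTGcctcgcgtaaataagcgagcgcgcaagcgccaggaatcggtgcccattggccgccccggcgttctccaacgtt
Ctss (chr3:95526536-95526785, plus strand): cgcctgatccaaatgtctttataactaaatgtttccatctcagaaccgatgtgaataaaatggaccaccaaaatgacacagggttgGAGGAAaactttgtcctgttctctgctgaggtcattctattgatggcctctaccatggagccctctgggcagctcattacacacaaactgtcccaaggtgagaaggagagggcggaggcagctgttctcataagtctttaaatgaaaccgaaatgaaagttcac
Ctsc (chr7:88277835-88278084, plus strand): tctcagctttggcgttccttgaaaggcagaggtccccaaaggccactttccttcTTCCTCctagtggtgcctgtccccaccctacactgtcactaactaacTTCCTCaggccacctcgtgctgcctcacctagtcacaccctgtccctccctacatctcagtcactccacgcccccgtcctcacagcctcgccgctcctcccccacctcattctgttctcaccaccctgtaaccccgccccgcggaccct

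Ctsd encodes the chief aspartic endopeptidase of the lysosome. Ctsd (ENSMUSG00000007891.16) is a protein-coding gene at chr7:142375911-142388038 on the minus strand of GRCm38. It read 6002, 7062 and 6271 normalized counts in the WT libraries, 17086, 9221 and 12404 in Cas9, and 8985, 9188 and 16198 in GCas9. Every Cas9 and GCas9 library was above every WT library, with Cas9 replicate 1 and GCas9 replicate 3 well above the others. The Cas9 mean was 12904 ± 3956 against 6445 ± 551 in WT (SD, n = 3 each), a log2 difference of 0.96 ± 0.26 (SE, limma adjusted p = 0.41). For GCas9 against WT the log2 difference was 0.78 ± 0.26 (limma adjusted p = 0.72). In set B, Ctsd read 9256, 7582, 11399 and 6281 in GFP, 8392, 11333, 8256 and 7155 in Cas9, and 6086, 13072, 8618 and 7008 in GCas9. The ranges of the 3 groups lay over one another, and the means were 8630 ± 2212, 8784 ± 1787 and 8696 ± 3099 (SD, n = 4 each).

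Ctss encodes a cysteine endopeptidase made mainly by antigen-presenting cells and, in the brain, by microglia. Ctss (ENSMUSG00000038642.10) lies at chr3:95526786-95556403 on the plus strand. It read 1585, 1952 and 1573 in WT, 5683, 2794 and 5342 in Cas9, and 3224, 2694 and 10397 in GCas9. No Cas9 or GCas9 library overlapped the WT libraries, and within GCas9 the highest library was 3.86-fold above the lowest. The log2 difference from WT was 1.37 ± 0.47 for Cas9 (limma adjusted p = 0.41) and 1.40 ± 0.47 for GCas9 (limma adjusted p = 0.72). Set B gave 2798, 2046, 3587 and 1410 in GFP, 1809, 3228, 2702 and 1609 in Cas9, and 1287, 3716, 1799 and 1350 in GCas9. The GFP libraries alone covered a 2.54-fold range, and the log2 difference from GFP was -0.05 ± 0.34 for Cas9 and -0.33 ± 0.34 for GCas9 (limma adjusted p = 1.0 and 0.88).

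Ctsb, Ctsl and Ctsf are the other endopeptidases of the papain family here. Ctsb (chr14:63122462-63145923), which also trims peptides from their carboxyl end, read 10797, 12057 and 10399 in WT, 15007, 11842 and 14545 in Cas9, and 11599, 12112 and 14403 in GCas9. Its groups overlapped, since the lowest library of Cas9 and of GCas9 lay below the highest WT library, and the log2 differences from WT were 0.31 ± 0.11 for Cas9 and 0.19 ± 0.11 for GCas9. Ctsl (chr13:64359337-64370890), a potent endopeptidase of most cell types, read 1570, 1653 and 1425 in WT, 2631, 1620 and 2024 in Cas9, and 1769, 1691 and 2028 in GCas9. The GCas9 libraries all lay above WT and the Cas9 libraries did not, because replicate 2 was lower than WT replicate 2. The log2 differences of Ctsl were 0.41 ± 0.16 and 0.24 ± 0.16. Ctsf (chr19:4855130-4860918), which also cuts the invariant chain in macrophages, read 1348, 1289 and 1232 in WT, 1397, 1347 and 1320 in Cas9, and 1334, 1317 and 1184 in GCas9. These 9 values lay within a narrow band, and the 95% intervals of the log2 differences were -0.07 to 0.21 for Cas9 and -0.15 to 0.13 for GCas9. In set B the group means of Ctsb were 8275 ± 773 in GFP, 8555 ± 1150 in Cas9 and 8674 ± 1312 in GCas9 (SD, n = 4 each), those of Ctsl 849.1 ± 94.5, 903.9 ± 68.0 and 901.0 ± 75.7, and those of Ctsf 826.3 ± 77.1, 822.1 ± 51.9 and 845.9 ± 52.0. All of these differences were smaller than the spread within a group.

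Ctsc, Ctsh and Ctsz trim proteins from their ends. Ctsc (chr7:88278085-88310888), the dipeptidyl peptidase that activates granule proteases of immune cells, read 140.5, 182.7 and 147.3 in WT, 646.8, 230.7 and 451.1 in Cas9, and 310.7, 238.8 and 1093 in GCas9. It had the highest fold of the 10 genes in the group means, 2.82 for Cas9 and 3.49 for GCas9, and also the widest spread, with GCas9 replicate 3 at 4.57 times replicate 2. The log2 differences were 1.38 ± 0.55 (limma adjusted p = 0.41) and 1.47 ± 0.55 (limma adjusted p = 0.72). Ctsh (chr9:90054152-90076089), an aminopeptidase, read 208.9, 247.4 and 242.2 in WT, 633.3, 333.3 and 579.6 in Cas9, and 354.8, 320.9 and 982.8 in GCas9. Ctsz (chr2:174427493-174439039), a carboxypeptidase rich in phagocytes, read 983.7, 1109 and 1054 in WT, 1943, 1262 and 1698 in Cas9, and 1347, 1336 and 2848 in GCas9. Both genes lay above WT in all 6 Cas9 and GCas9 libraries. Their log2 differences from WT were 1.09 ± 0.40 and 0.62 ± 0.28 for Cas9 and 1.05 ± 0.40 and 0.72 ± 0.28 for GCas9. In set B, Ctsc read 545.1, 290.7, 554.7 and 201.1 in GFP, 267.6, 519.9, 502.8 and 238.2 in Cas9, and 166.6, 554.6, 310.6 and 192.7 in GCas9. Each group thus held both low and high libraries, and the log2 difference from GFP had a 95% interval of -0.89 to 0.85 for Cas9 and -1.29 to 0.45 for GCas9. Ctsh and Ctsz gave intervals of -0.66 to 0.71 and -0.37 to 0.54 for Cas9 against GFP.

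Ctsa and Lgmn belong to other peptidase families. Ctsa (chr2:164832873-164841032), a serine carboxypeptidase that also shields neuraminidase and beta-galactosidase, read 2924, 3045 and 2914 in WT, 3746, 3146 and 3472 in Cas9, and 3287, 3126 and 3374 in GCas9. All Cas9 and GCas9 libraries were above all WT libraries, by a small amount: the log2 difference was 0.22 ± 0.07 for Cas9 (limma unadjusted p = 0.009, adjusted p = 0.41) and 0.14 ± 0.07 for GCas9. Lgmn (chr12:102394084-102439813), the asparaginyl endopeptidase legumain that processes several cathepsins, read 2047, 2496 and 2115 in WT, 3783, 2607 and 3396 in Cas9, and 2476, 2518 and 4744 in GCas9. The Cas9 libraries did not overlap WT, while GCas9 replicate 1 lay just below WT replicate 2. Its log2 differences were 0.54 ± 0.24 and 0.48 ± 0.24. In set B the Ctsa means were 1807 ± 87.7, 1856 ± 39.7 and 1947 ± 236 in GFP, Cas9 and GCas9 (SD, n = 4 each), and the Lgmn means 1639 ± 343, 1657 ± 320 and 1430 ± 367. Neither gene was separated between any groups of set B.

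Counted together, all 10 cathepsins were higher in Cas9 than in WT, with a median log2 difference of 0.58, against -0.003 over the 15924 genes tested. None of the 10 had a limma adjusted p under 0.05, where 1 of 15924 genes did (0.00628%), and edgeR and DESeq2 on the recovered reads called none of them either. At an unadjusted p under 0.05, 7 of 10 were higher, where 6.17% of all genes were. The libraries did not overlap for 7 of 10 (Ctsd, Ctss, Ctsc, Ctsh, Ctsz, Ctsa and Lgmn), where 10.7% of all genes were higher with no overlap. For these genes the exact two-sided permutation p was 0.1, the smallest that 3 libraries against 3 can give. In limma with array weights, which let libraries differ in variance, 9 of 10 passed at an adjusted p of 0.012 to 0.023, all but Ctsf, where 8.65% of all genes were called higher. That fit gave Cas9 replicate 3 a weight of 5.6 and Cas9 replicates 1 and 2 weights of 0.32 and 0.48. The count without overlap was also 7 without Cas9 replicate 1, and it was 7 to 9 with any other library of the 2 groups left out, an alternative chosen after seeing the data. Without Cas9 replicate 1 the log2 differences were 0.73 for Ctsd, 1.19 for Ctss, 1.05 for Ctsc, 0.92 for Ctsh, 0.48 for Ctsz, 0.43 for Lgmn, 0.25 for Ctsb, 0.23 for Ctsl, 0.16 for Ctsa and 0.05 for Ctsf.

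For GCas9 against WT, which shares the WT libraries, 9 of 10 genes were higher and Ctsf was not, with a median log2 difference of 0.60 against -0.0 over all genes. None had a limma adjusted p under 0.05 (0.00628% of all genes had), with the replicate number as a block 0 of 10 and 2 genes in all had, and 5 of 10 were higher at an unadjusted p under 0.05, where 4.44% of all genes were. For 7 of 10 the libraries did not overlap, where 9.16% of all genes were higher with no overlap. Replicate 3 carried much of the size. Without it the median was 0.27 and the log2 differences were 0.50 for Ctsd, 0.80 for Ctss, 0.80 for Ctsc, 0.54 for Ctsh, 0.36 for Ctsz, 0.18 for Lgmn, 0.16 for Ctsl, 0.11 for Ctsa, 0.10 for Ctsb and 0.04 for Ctsf, while 7 of 10 genes still had no overlap with WT.

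The design also asks whether GCas9 and Cas9 differ. In set A none of the 10 genes had an adjusted or an unadjusted limma p under 0.05, where 0.0% and 5.45% of all genes had, and none had separate libraries, where 8.84% of all genes had. The log2 differences of GCas9 minus Cas9 ran from -0.18 for Ctsd to 0.10 for Ctsz. Their 95% intervals were wide for Ctsc (-1.15 to 1.33) and Ctss (-1.04 to 1.10) and narrow for Ctsf (-0.22 to 0.05) and Ctsa (-0.23 to 0.07). Without Cas9 replicate 1 the differences were 0.04 for Ctsd, -0.05 for Ctsb, 0.01 for Ctsl, 0.22 for Ctss, -0.06 for Ctsf, 0.42 for Ctsc, 0.13 for Ctsh, 0.24 for Ctsz, -0.02 for Ctsa and 0.06 for Lgmn, so that those of Ctsd, Ctsl, Ctsh and Lgmn changed sign. In set B the differences ran from -0.40 for Ctsc to 0.06 for Ctsa, with 0 of 10 under either p, where 0.0% and 3.84% of all genes were, and 0 of 10 without overlap, where 2.02% of all genes were. A fit over all 21 libraries gave a mean of the 2 sets between -0.15 (Ctsc) and 0.02 (Ctsz), with none under an adjusted or unadjusted p of 0.05 (0.0% and 3.72% of all genes), and none had an adjusted p under 0.05 without Cas9 replicate 1 of set A either. The difference between the sets in this contrast was tested too, and none of the 10 passed an adjusted or unadjusted p (0.0% and 4.34% of all genes). With intervals this wide for Ctsc and Ctss, the values do not show that Cas9 and GCas9 act alike on these transcripts.

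Against GFP in set B, 7 of 10 genes were higher and 3 lower with Cas9, with a median log2 difference of 0.03, and 5 were higher and 5 lower with GCas9, with a median of -0.0. For Cas9, 0 of 10 had an adjusted or unadjusted limma p under 0.05, where 0.0% and 6.24% of all 15428 genes had, and 0 of 10 were free of overlap, where 4.68% of all genes were. For GCas9 the count was 0 of 10 by all of these rules, where 0.0%, 6.48% and 4.16% of all genes were. The lowest adjusted p of limma was 0.84, for Ctsa in GCas9. The lowest exact two-sided permutation p against GFP was 0.3143, for Ctsl in Cas9.

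**Figure D2:**
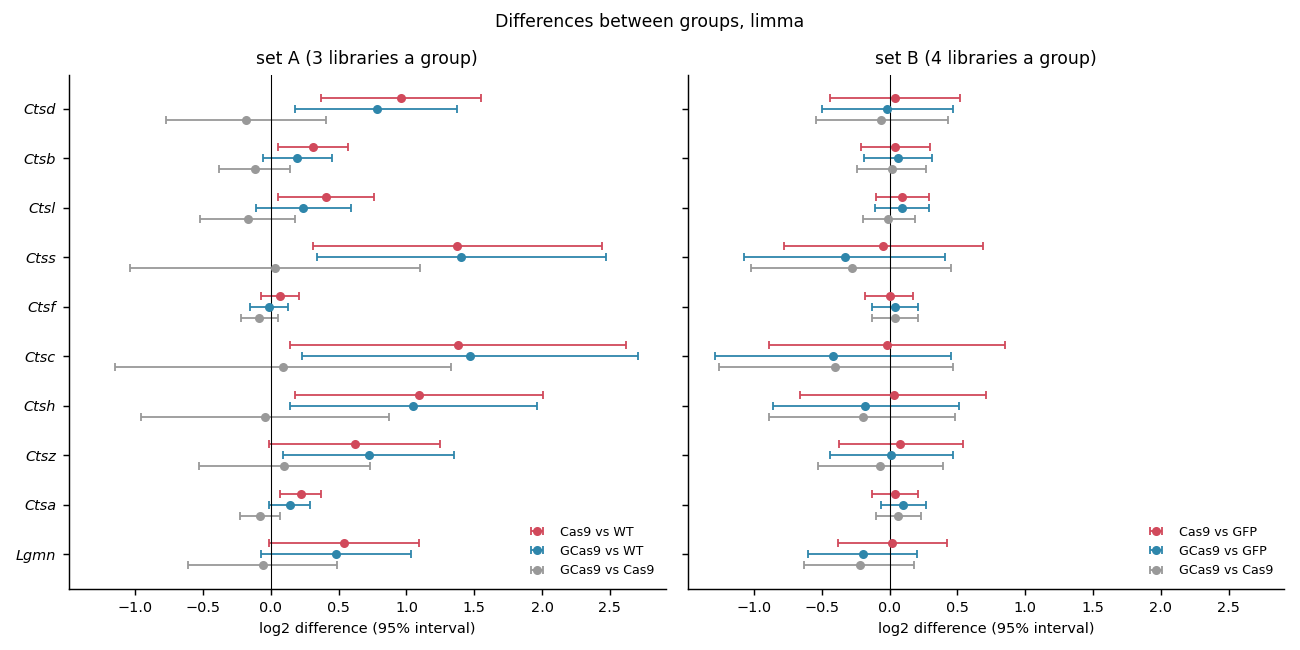
Log2 difference between groups from limma (horizontal axis) for each gene, with bars for the 95% interval, in set A (left) and set B (right). In set A the points against WT run up to 1.47 for Ctsc with wide bars, Ctsf sits near 0, and in set B all bars cross 0.

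The libraries of a group differed from one another, and most of the 10 genes did so together. Cas9 replicate 1 of set A was the highest of its group for 10 of 10 genes and replicate 2 the lowest for 9. GCas9 replicate 3 was the highest for 9 of 10 and WT replicate 2 for 9 of 10. In set B, GFP replicate 3 was the highest for 7 and replicate 4 the lowest for 8, Cas9 replicate 2 the highest for 8 and replicate 4 the lowest for 8, and GCas9 replicate 2 the highest for 8 and replicate 1 the lowest for 9. Ctsf was among the exceptions in all 6 groups.

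As a description over the deviations of 9 libraries in set A and 12 in set B from their group means, Ctss correlated with Ctsc at r = 0.99 and 0.97, with Ctsh at 0.99 and 0.97, and with Lgmn at 0.98 and 0.99. Ctsd followed Ctss at 0.93 and 0.96. Ctsb was looser (0.88 and 0.75 with Ctss), and so were Ctsl (0.70 and 0.65) and Ctsa (0.71 and 0.85). Ctsf correlated negatively with Ctss, at -0.62 and -0.73. All values of a library share its depth, so these are not separate observations.

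Among 11111 genes with a mean of at least 50 in both sets, the genes most like each cathepsin were ranked by the smaller of the 2 correlations. For Ctss they were C1qb (0.99 and 0.99), C1qa (1.0 and 0.98) and Vav1 (0.99 and 0.98). C1qa and C1qb encode chains of the complement starter C1q, made in the brain by microglia. C1qb was also among the top 3 of Ctsd, Ctsc, Ctsz and Lgmn. Ctsc and Ctsh were most like Il21r (0.99 and 0.98, and 1.0 and 0.98), Ctsz most like Tlr13 (0.99 and 0.98), and Ctsd most like Il21r (0.95 in both) and Npc2 (0.98 and 0.93), a lysosomal cholesterol carrier. The other members had different company. Ctsl was most like Trem2 (0.84 and 0.82), a microglial receptor, Ctsb most like Slc14a1 (0.87 and 0.86), Ctsa most like Cd63 (0.92 and 0.91), a lysosomal membrane protein, and Ctsf most like Cpe (0.91 and 0.86), carboxypeptidase E of neuroendocrine cells.

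Markers of other cells varied with the cathepsins. The summed level of 17 microglia markers was 12324, 14753 and 12968 in WT, 23685, 16868 and 23456 in Cas9 and 16155, 16601 and 32066 in GCas9 of set A, with no marker at 0. Its highest library was also the highest for the summed cathepsins in every one of the 6 groups. In set B it ran from 8946 to 15035 in GFP, 9524 to 13823 in Cas9 and 7855 to 14738 in GCas9. There 8 of 17 markers were higher in Cas9 than in GFP and 5 of 17 in GCas9. All 17 microglia markers were higher in Cas9 than in WT (median log2 difference 0.57), and all 17 in GCas9 (median 0.29). In Cas9 none passed the adjusted threshold of limma. At an unadjusted limma p under 0.05, 10 were higher, where 6.17% of all genes were. Trem2 stood at 635.0 ± 127 in Cas9 and 339.4 ± 39.9 in WT, and P2ry12, a marker of resting microglia, at 1123 ± 90.8 and 918.3 ± 32.7 (SD, n = 3 each). In bulk tissue, more cells of a type and more RNA per cell cannot be told apart, and the part of microglial number in the cathepsin values was not tested.

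Of 15 markers of activated microglia and macrophages, 14 were tested and all were higher in Cas9 than in WT (median log2 difference 2.5). Some, such as Msr1 (mean 1.88 in WT and 19.6 in Cas9), passed the filter only through the Cas9 and GCas9 libraries, which favours a higher value. The limma threshold was passed by 1, Gpnmb, a glycoprotein of lipid-laden phagocytes, at 180.1 ± 61.2 against 21.9 ± 2.48 (SD, n = 3 each, limma adjusted p = 0.038). It also passed in GCas9, at 232.7 ± 74.6 (SD, n = 3, limma adjusted p = 0.014). Lyz2, the lysozyme of macrophages, stood at 1060 ± 409 against 130.5 ± 26.6. The summed level of the list was 32960 to 36641 in WT, 41360 to 51611 in Cas9 and 42026 to 45517 in GCas9, and Apoe, a lipid carrier of glia, alone averaged 40078 in Cas9. In set B it was 24525 to 27467 in GFP, 28090 to 31507 in Cas9 and 27924 to 35805 in GCas9, where 5 of 13 markers were higher in Cas9 than in GFP and 7 of 13 in GCas9.

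Markers of blood monocytes, lymphocytes and class II presentation also varied between libraries. The monocyte list had sums of 1270 to 1403 in WT, 1550 to 2337 in Cas9 and 1453 to 5197 in GCas9 of set A. Of its 12 genes 10 were tested there, and all 10 were higher in Cas9 than in WT (median log2 difference 2.40). Some, such as Ms4a7, averaged under 10 in WT and passed the filter only through the Cas9 and GCas9 libraries, which favours a higher value. In set B the sums of the list were 239.3 to 922.9, 288.6 to 750.6 and 232.6 to 938.0 in GFP, Cas9 and GCas9. There 6 of 9 tested genes were higher in Cas9 than in GFP (median 0.14) and 2 of 9 in GCas9 (median -0.52). The WT and Cas9 sums of set A rest largely on 1 gene, Vcan, which alone averaged 1312 ± 133 in Cas9 (SD, n = 3). Vcan differed little between Cas9 and WT, with a log2 difference of 0.12 ± 0.11 (SE). In GCas9 Vcan averaged 1221 ± 168 and Cd52 511.8 ± 713 (SD, n = 3 each). The sum of 5197 in GCas9 thus came mostly from genes other than Vcan. Ms4a7 stood at 58.7 ± 23.7 in Cas9 and 5.25 ± 2.01 in WT, and Cd52 at 193.2 ± 122 and 26.0 ± 3.87 (SD, n = 3 each). The lymphocyte list had sums of 3458 to 4003 in WT, 3956 to 12623 in Cas9 and 4652 to 24793 in GCas9, with 1 gene at 0 in WT. In GFP, Cas9 and GCas9 of set B they were 2901 to 9624, 3910 to 9731 and 2010 to 16949. Igkc, Igj and Cd79a averaged 72.7, 37.4 and 4.38 in WT and 4156, 1016 and 49.9 in Cas9 of set A. Most of the WT sum thus came from other genes of the list, and the sums understate the differences of these genes. Of the 11 lymphocyte genes tested, 10 were higher in Cas9 than in WT and 1, Cd4, was lower (log2 difference -0.07 ± 0.09, SE). Some, such as Cd79a, passed the filter only through the Cas9 and GCas9 libraries. In set B, 6 of 10 tested were higher in Cas9 than in GFP (median 0.19) and 1 of 10 in GCas9 (median -0.9). The library highest in lymphocyte markers was GCas9 replicate 3 in set A and GCas9 replicate 2 in set B, which were also highest for the summed cathepsins. Within Cas9 of set B, replicate 2 was highest for both. Within WT, Cas9 of set A and GFP they differed: replicates 1, 3 and 1 were highest in lymphocyte markers, and replicates 2, 1 and 3 for the summed cathepsins. Of the 11 genes of class II presentation, 10 were higher in Cas9 than in WT (median 2.01) and 11 in GCas9 (median 1.90), none past the adjusted threshold of limma. Cd74, the substrate of cathepsin S, stood at 2270 ± 1589 in Cas9 and 37.2 ± 6.35 in WT, and H2-Aa at 876.1 ± 552 and 13.8 ± 7.55 (SD, n = 3 each). The class II sum reached 24391 in GCas9 replicate 3 of set A, against 763.8 to 1011 in WT. In set B it was 1421 to 7510 in GFP, 2483 to 5205 in Cas9 and 1125 to 10384 in GCas9. Of the 11 genes there, 5 were higher in Cas9 than in GFP (median -0.05) and 0 in GCas9 (median -0.64), none past the adjusted threshold of limma. Whether these cells account for any cathepsin reads was not tested.

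**Figure D3:**
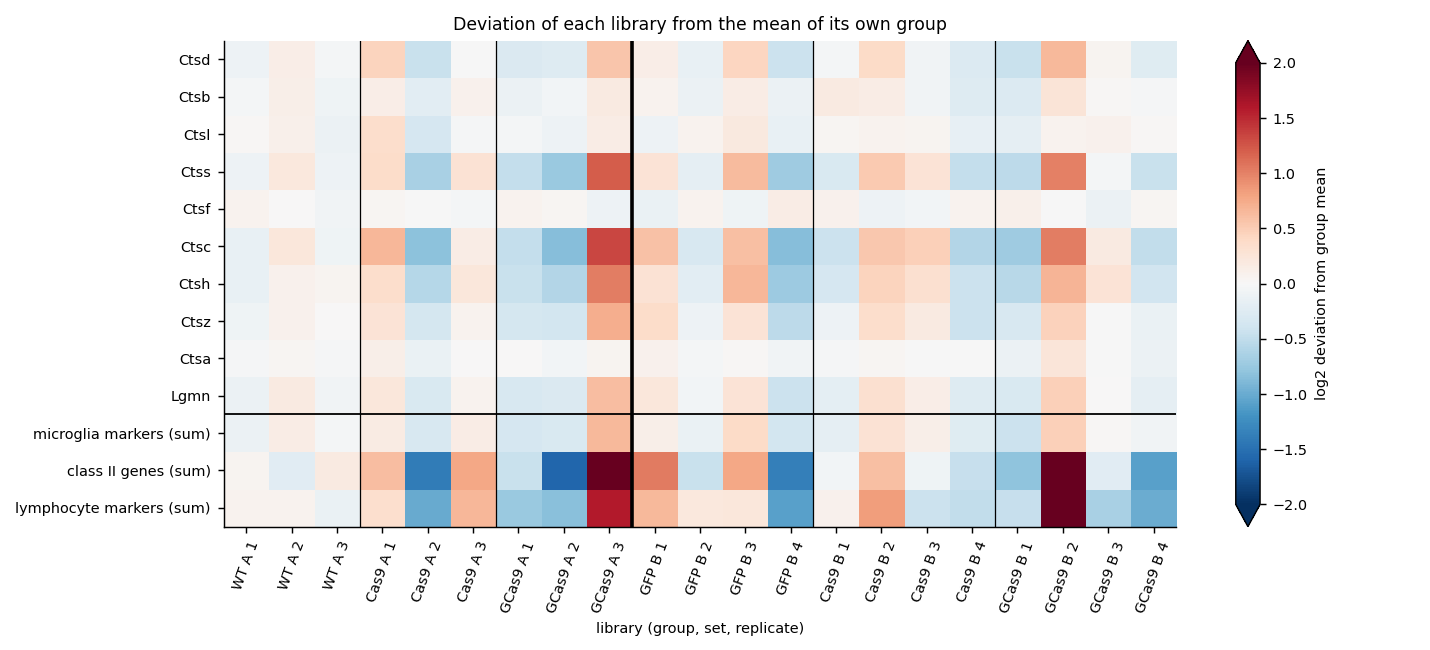
Log2 deviation of each library (columns, by group and replicate) from the mean of its own group, for the 10 genes (rows above the line) and for the summed levels of 3 marker lists (rows below it), with red above and blue below the mean. GCas9 replicate 3 of set A is red for 9 of 10 genes and has the highest class II and lymphocyte sums of set A.

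The remaining cell lists were as follows. The 10 choroid plexus and ependymal markers, given above for set A, summed to 2096 to 13022 in GCas9 of set A and 573.5 to 1077 in set B, except Cas9 replicate 1 of set B at 11118. All 10 oligodendrocyte markers were higher in Cas9 than in WT (median 0.50), none at an adjusted limma p under 0.05. At an unadjusted p under 0.05 all 10 were higher, where 6.17% of all genes were. Their sums were 232980 to 385631 against 199290 to 240308, and the highest was again replicate 1. In GCas9 they summed to 204655 to 222046 and 3 of 10 were higher than in WT. All 10 astrocyte markers were higher in Cas9 (median 0.25), led by Gfap at 8873 ± 3672 against 1497 ± 239 (SD, n = 3 each), with sums of 101767 to 113180 in Cas9, 100308 to 105030 in GCas9 and 86902 to 92941 in WT. The 10 endothelial and mural markers were all higher in Cas9 (median 0.33) and summed to 9365 to 11744 against 8154 to 9135. Of 12 neuron markers, 11 were lower in Cas9 than in WT (median -0.10) and 12 in GCas9 (median -0.13), none past the threshold. In set B the medians of these lists in Cas9 against GFP were 0.11 for oligodendrocytes, 0.08 for astrocytes, 0.10 for endothelial and mural cells and 0.01 for neurons.

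The wider cathepsin family was mostly undetected. Of 13 other cathepsin genes, 9 (Ctsg, Ctsj, Ctsm, Ctsq, Ctsr, Cts3, Cts6, Cts7 and Cts8) had 0 reads in all 21 libraries. Ctso, a widely made cysteine peptidase, stood at 762.7 ± 42.4 in WT, 1010 ± 174 in Cas9 and 937.5 ± 168 in GCas9 (SD, n = 3 each). Ctsk, the collagen-cutting cathepsin of osteoclasts, stood at 39.8 ± 13.9, 66.1 ± 19.6 and 45.9 ± 6.72. Ctse rested on 5 reads over the 3 WT libraries, 47 over Cas9 and 65 over GCas9, and Ctsw, of cytotoxic lymphocytes, on 12, 55 and 158. The 4 genes that were tested in set A were all higher in Cas9 than in WT, with none past the adjusted threshold of limma. At an unadjusted limma p under 0.05, 3 were higher, where 6.17% of all genes were. Ctse and Ctsw averaged 1.62 and 3.76 in WT and passed the filter at 10 only through the Cas9 and GCas9 libraries. For these, unlike Ctso and Ctsk, the filter thus favoured a higher value.

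Among inhibitors, Cst3 (cystatin C), the secreted inhibitor of brain tissue, was the most abundant, at 22784 ± 777 in WT, 26663 ± 2369 in Cas9 and 23612 ± 834 in GCas9 (SD, n = 3 each). Cst7 (cystatin F), an inhibitor of cathepsins C and L made by immune cells, read 8 reads in all over the 3 WT libraries, 230 over Cas9 and 501 over GCas9. Its normalized level was 2.48 ± 0.464, 78.0 ± 32.2 and 183.4 ± 213, with log2 differences from WT of 4.41 ± 0.75 and 5.03 ± 0.75 (limma adjusted p = 0.41 and 0.38). Serpina3n, a serpin of reactive astrocytes, stood at 108.3 ± 19.5, 1219 ± 65.5 and 2475 ± 2715. Both lay above WT in all Cas9 and GCas9 libraries of set A. In set B, Cst7 ran from 11.8 to 119 in GFP, 17.2 to 57.8 in Cas9 and 17.5 to 125 in GCas9, and Serpina3n from 142 to 1547 in GFP alone. Stfa1, Stfa2 and Stfa3 had 0 reads throughout. Of the 8 inhibitors tested, 7 were higher in Cas9 than in WT and 6 in GCas9, none past the threshold. Cst7 and Serpina3g (mean 1.77 in WT) passed the filter only through the Cas9 and GCas9 libraries, which favours a higher value.

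The machinery around the cathepsins was read from 4 lists. Of 33 other lysosomal hydrolases and activators, 30 were higher in Cas9 than in WT (median log2 difference 0.24) and 28 in GCas9 (median 0.15). Acp5 (mean 4.88 in WT) passed the filter only through the Cas9 and GCas9 libraries. In each comparison 12 of 33 were higher with no overlap, where 10.7% (Cas9) and 9.16% (GCas9) of all genes were, and 1 was lower with no overlap. The 3 of smallest p in Cas9 were Lyz2, Dnase2a (194.5 ± 32.1 against 119.0 ± 13.3), which digests DNA, and Hexa (1751 ± 58.7 against 1475 ± 138), which cleaves gangliosides (SD, n = 3 each). The 19 tested genes of the lysosomal membrane and proton pump had a median of 0.01 in Cas9, with Cd68 (523.9 ± 51.3 against 367.3 ± 22.1), a membrane protein of phagocytes, and Lamp1 (8138 ± 1078 against 6474 ± 296) higher and the pump subunit Atp6v1b2 lower (8119 ± 597 against 9306 ± 313). The 8 sorting genes had a median of 0.02, with Scarb2 at 1709 ± 183 against 1314 ± 76.3 and Lrp1 at 15076 ± 534 against 17289 ± 928. The 9 tested regulators had a median of -0.04, with Tfeb, the master factor of lysosomal genes, at 298.4 ± 69.8 against 220.2 ± 16.9 and Mtor at 2900 ± 181 against 3249 ± 113. No gene of these 4 lists had an adjusted limma p under 0.05 in any comparison. Their medians against GFP in set B lay between -0.04 and 0.04. Lyz2, Cd68 and Cst7 each stand in 2 lists.

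Levels were set side by side only per kilobase of the principal transcript of each gene. In WT the order was Ctsd (3030 ± 259 normalized counts per kilobase, SD, n = 3), Ctsb (2337 ± 182), Ctss (1257 ± 159), Lgmn (1115 ± 122), Ctsa (812.1 ± 20), Ctsl (785.9 ± 58.5), Ctsz (727.8 ± 43.4), Ctsf (651.4 ± 29.4), Ctsh (144.0 ± 12.9) and Ctsc (62.9 ± 9.09). Neighbours overlapped between Ctss and Lgmn, Ctsa and Ctsl, and Ctsl and Ctsz, and the other neighbours did not. In Cas9 the order began with Ctsd (6067 ± 1860) and Ctss (3399 ± 1165), so that Ctss passed Ctsb (2909 ± 360), with which it overlapped. In GCas9 Ctsd (5386 ± 1931), Ctss (4013 ± 3175) and Ctsb (2679 ± 315) overlapped in turn. In set B, Ctsd led in all 3 groups at 4057 ± 1040, 4130 ± 840 and 4088 ± 1457 (SD, n = 4 each) and did not overlap the next gene. Ctsh and Ctsc were the lowest pair in all 6 groups.

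**Figure D4:**
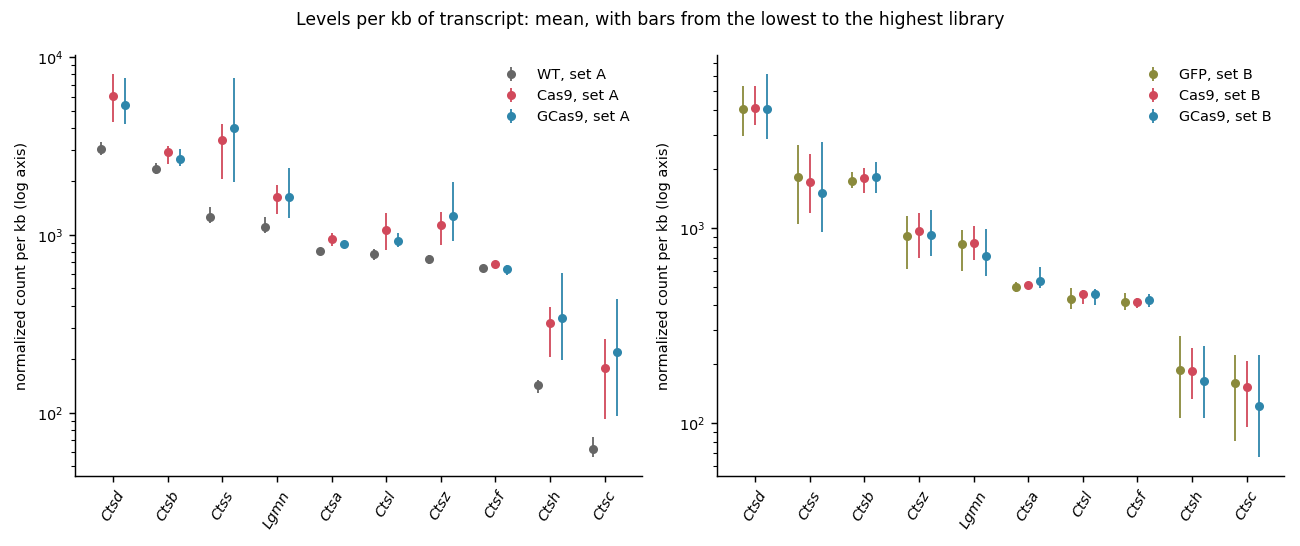
Normalized count per kilobase of transcript (vertical log axis) for the 10 genes in the order of the control group, in set A (left) and set B (right). Points are group means and bars run from the lowest to the highest library. Ctsd is the highest gene in every group, and in set A the bars of Ctss, Ctsh and Ctsc are the longest and lie above WT in both Cas9 and GCas9.

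The labels do not say whether counting used strand. Ctsb overlaps Fdft1 (mean 1286 normalized counts in set A), Ctsz overlaps Nelfcd (758) and Ctsa overlaps Pltp (1656) and Neurl2 (49.6), each on the opposite strand in GENCODE M21, and reads of such pairs cannot be told apart without strand. Ctsl overlaps the antisense model Gm47123 and Ctsc the lincRNA Gm26522 on the opposite strand. On the same strand, Ctsd overlaps the gene model Gm49369, and Ctsl and Ctss the processed pseudogenes Gm49230 and Hmgb1-ps5. Ctsf, Ctsh and Lgmn overlap no annotated gene.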

How the data were processed

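RNA sequencing values of 21 striatal libraries were read from 1 deposited table. Per the submitters' processing notes, HTSeq, DESeq2, R 3.3.3, STAR 2.5.2b and SAMtools were used with GRCm38.p3. Per the labels' protocols, total RNA was turned into amplified SMARTer cDNA and Nextera XT libraries. The deposited signal values are gene counts that the authors divided by a size factor per library, and all values above 0 (100.0%) came back as whole reads within 0.001. The labels do not separate the sets, which were told apart by title numbering and by scaling.

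Genes averaging 10 or more normalized counts were tested on log2(value + 1), within each set, with limma 3.58.1 (R 4.3.3) and Benjamini-Hochberg adjustment at 0.05, all 3 groups of a set sharing 1 estimate of spread. The labels do not say what replicate numbers share. Deviations of same-numbered libraries correlated above 0.1 in every pair for WT with GCas9 of set A (0.11 to 0.28, 3 pairs) and Cas9 with GCas9 of set B (0.12 to 0.33, 4 pairs). In the other comparisons only some pairs did. The differences, intervals and p-values given come from fits that do not pair the numbers, and the replicate block is an alternative. Fold changes on the log2(value + 1) scale understate low genes. The filter used the mean over all libraries of a set, so a gene low in WT could pass through Cas9 and GCas9 alone. For such genes the filter favours a value above WT. A fit over all 21 libraries tested GCas9 minus Cas9 across sets. edgeR 4.0.16 and DESeq2 1.42.0 ran on the recovered reads. Other alternatives were the pseudocount, the filter, quantile and TMM scaling, array weights, fits on 2 groups, a replicate block and leaving out each library. The fit was tested on simulated data. Exact permutation tests, figures and summaries used Python 3.11.15, numpy 2.4.6, pandas 2.3.3 and scipy 1.17.1.

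The members and the 16 companion lists (220 genes with the members, 2 matched by an older symbol) were chosen with earlier results of these data known. All members are named, with up to 3 genes of each list by smallest limma p, a few further list genes being named after their values were seen. The 3 genes most like each member were ranked by the smaller of 2 Pearson correlations. Positions and transcript lengths come from GENCODE M21 on GRCm38, with the principal transcript used for length. A planned display of protein stretches was not made.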

Additional observations from a re-analysis of the deposited data

Results flagged for a closer look

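In the 30 groups of 4 libraries checked (10 genes in 3 groups of set B), 2 values lay apart from the rest of their group, where chance alone marks about 1 in 20 groups. Ctsl in Cas9 replicate 4 of set B read 803.1 normalized counts, below the other Cas9 libraries at 927.1, 950.8 and 934.8. Ctsa in Cas9 replicate 2 of set B read 1915, above the other Cas9 libraries at 1829, 1841 and 1839. In both, the gap to the nearest library took a larger share of the range of the group than Dixon's 95% critical value for 4 libraries.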

How the results depend on the processing

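Without array weights, 0 of 10 cathepsins passed an adjusted p of 0.05 in any comparison under any alternative run, and with them 9 passed for Cas9 against WT and 0 in the other comparisons. The differences from WT in set A kept their direction under every alternative, except Ctsf in GCas9. Leaving out 1 library moved the median of the 10 from 0.581 to between 0.455 and 0.745 for Cas9 and from 0.601 to between 0.266 (without GCas9 replicate 3) and 0.77 for GCas9, where array weights gave 0.372. The 3 libraries a group and 146 or more reads a value limit how small a difference can be seen in Ctsc.

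Small differences turned sign. With array weights they became 0.01 for Ctsf in GCas9 against WT, -0.55, -0.39 and -0.21 for Ctss, Ctsc and Ctsz in GCas9 against Cas9 of set A, 0.01 for Ctsc in Cas9 against GFP, -0.01 for Ctsz in GCas9 against GFP and 0.02 for Ctsl in GCas9 against Cas9 of set B. With edgeR and DESeq2 on reads they became 0.08 and 0.1 for Ctsh in GCas9 against Cas9 of set A, -0.02 and -0.01 for Ctsh in Cas9 against GFP, and 0.01 in both for Ctsd in GCas9 against GFP. With quantile scaling they became -0.02 for Ctsb and 0.01 for Ctsf in Cas9 against GFP, -0.02 for Ctsb in GCas9 against GFP and -0.0 for Ctsb in GCas9 against Cas9 of set B. The cause was not tested.

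Leaving out 1 library at a time also turned signs. Ctsf in GCas9 against WT ran from -0.05 to 0.04. In GCas9 against Cas9 of set A, Ctsd ran from -0.46 to 0.04, Ctsl from -0.34 to 0.01, Ctss from -0.58 to 0.4, Ctsc from -0.58 to 0.52, Ctsh from -0.56 to 0.25, Ctsz from -0.26 to 0.28 and Lgmn from -0.37 to 0.1. In Cas9 against GFP, Ctsd ran from -0.1 to 0.19, Ctsb from -0.02 to 0.13, Ctss from -0.29 to 0.16, Ctsf from -0.05 to 0.05, Ctsc from -0.31 to 0.18, Ctsh from -0.22 to 0.25, Ctsz from -0.09 to 0.22 and Lgmn from -0.12 to 0.11. In GCas9 against GFP, Ctsd ran from -0.23 to 0.13, Ctsb from -0.03 to 0.15, Ctsf from -0.01 to 0.09, Ctsh from -0.42 to 0.04 and Ctsz from -0.16 to 0.14. In GCas9 against Cas9 of set B, Ctsd ran from -0.27 to 0.09, Ctsb from -0.07 to 0.11, Ctsl from -0.06 to 0.06, Ctsz from -0.22 to 0.05 and Ctsa from -0.02 to 0.1.

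Over all genes, limma called 1 gene in Cas9 against WT, 0 with pseudocount 10 or edgeR, 6 with the 2 groups alone, 116 with DESeq2 and 2570 with array weights. In GCas9 against WT it called 1, with 6 by array weights and 218 by DESeq2. In GCas9 against Cas9 of set A it called 0, with 932 by array weights and 4 by DESeq2. In Cas9 against GFP it called 0, with 14 by DESeq2, and in GCas9 against GFP 0, with 12 by array weights, 7 with the 2 groups alone and 41 by DESeq2. Leaving out 1 library gave 0 to 7 genes in Cas9 against WT, 0 to 2 in GCas9 against WT and 0 to 9 in GCas9 against GFP. In the fit over 21 libraries the mean of the sets gave 0 genes, 2 with pseudocount 0.1 and 4 with no filter. TMM scaling was not run for that fit.

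With the replicate number as a block, 0 of 10 cathepsins were called in every comparison, so the block changed no call among them, and over all genes 2, 2 and 5 were called in Cas9 against WT, GCas9 against WT and GCas9 against GFP. In the comparisons where not every pair correlated above 0.1, same-numbered libraries correlated at -0.02 to 0.32 (WT and Cas9) and 0.09 to 0.64 (Cas9 and GCas9) in set A, and at -0.03 to 0.35 (GFP and Cas9) and -0.13 to 0.46 (GFP and GCas9) in set B.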
